A study of Bos taurus with 27 samples.

Results

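AHNAK, ANXA2 and S100A10 were followed in the colon of 27 newborn male Holstein calves. The 3 genes were chosen by name, as a scaffold and its known partners, with earlier results of these data known. Each symbol matched 1 Ensembl identifier among the 24616 genes of the count table: ENSBTAG00000013468 for AHNAK, ENSBTAG00000009615 for ANXA2 and ENSBTAG00000015147 for S100A10. The study asked how the hour of the first colostrum meal and the parity of the dam affect gene expression in the colon. The first meal was given at birth (TRT0, 0 h), at 6 h (TRT6) or at 12 h (TRT12), with 9 calves per treatment. In each treatment, 4 calves were born to first-calving heifers (H) and 5 to cows that had calved before (C), giving the groups TRT0_H, TRT0_C, TRT6_H, TRT6_C, TRT12_H and TRT12_C. Every calf was taken from its dam without contact, was fed the same pooled and pasteurized colostrum by tube and was sampled at 51 h of age. Milk replacer followed from 12 h after the colostrum meal, so it began later in TRT6 and TRT12 than in TRT0. No group went without colostrum, and a TRT12 calf had its first meal closer to sampling than a TRT0 calf. Each library was made from whole colon tissue of 1 calf.

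AHNAK encodes a giant scaffold protein that lies beneath the plasma membrane, where its carboxy-terminal end binds the complex of annexin A2 and S100A10. Annexin A2 (ANXA2) is a calcium-regulated protein that binds acidic phospholipids and actin. S100A10 (p11) is an unusual S100 protein, locked in a calcium-insensitive state, and its dimer joins 2 annexin A2 molecules into a heterotetramer that takes part in membrane traffic, in the cortical cytoskeleton and, at the cell surface, in plasminogen activation. Annexin A2 protein is known to stabilise S100A10 protein, which RNA counts do not show. In the gut, annexin A2 and S100A10 are abundant in the epithelium, whereas AHNAK is found in many cell types, muscle and endothelium among them.

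The count totals ran from 1163791 to 4202593 per calf (median 2215402), so that 3 counts correspond to 0.714 to 2.58 CPM (counts per 1000000 counts of the library). The paper reports an average read number per sample many times these totals, and the reason for the gap was not examined. No 2 of the 351 pairs of libraries held identical counts. The library descriptions held 3 codes, with 11, 11 and 5 calves, called lanes 1 to 3 here although the labels do not use that word. The code of lane 3 starts with another number than those of lanes 1 and 2. The lanes were not balanced over the groups: lane 1 held no TRT0_C calf and lane 3 no TRT12_C calf. Markers of colon wall layers were counted in every group: the sum of 7 epithelial markers, among which LGALS4 was highest, lay between 2245 and 3879 CPM and that of 6 smooth muscle markers, led by MYH11, between 6554 and 13665 CPM. In such bulk tissue, a change in the share of a cell type and a change in RNA per cell cannot be told apart.

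All 3 genes passed the filter on low counts. AHNAK was counted 3491 to 13759 times per calf, ANXA2 350 to 1105 times and S100A10 121 to 415 times. The mean level was 3252 ± 328 CPM for AHNAK, 315 ± 51.7 CPM for ANXA2 and 110 ± 19.9 CPM for S100A10 (SD, n = 27). The spread between calves was 10.1%, 16.39% and 18.1% of the mean, against 1.25%, 4.0% and 6.78% that counting error alone would give. CPM does not correct for transcript length, so these levels rank calves for 1 gene and not the 3 genes against each other.

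ANXA2 and S100A10 had their highest group means in TRT12_C, the calves of cows fed at 12 h, while AHNAK did not follow them. In TRT12_C, ANXA2 averaged 1.47-fold the TRT0_C level and S100A10 1.38-fold, with AHNAK at 0.978-fold, from the fit described below. None of these differences passed the threshold set for calls in the main test. The values of each calf are given first.

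For ANXA2, the 5 TRT12_C calves were at 332, 384, 394, 401 and 406 CPM. The 5 TRT0_C calves were at 246, 263, 267, 284 and 303 CPM. All TRT12_C calves were thus above all TRT0_C calves. The 5 TRT6_C calves were at 245, 255, 292, 301 and 324 CPM, which spans the TRT0_C range and ends below the lowest TRT12_C calf. Among the calves of heifers, the TRT0_H values were 268, 321, 328 and 357 CPM. The TRT6_H values were 289, 330, 346 and 399 CPM. The TRT12_H values were 232, 291, 297 and 355 CPM, so the lowest ANXA2 value of the 27 calves was in a calf fed at 12 h. The 3 heifer groups overlapped throughout.

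In order of their means, ANXA2 was at 383 ± 29.8 CPM in TRT12_C (SD, n = 5), 341 ± 45.5 in TRT6_H (n = 4), 319 ± 37.1 in TRT0_H (n = 4), 294 ± 50.3 in TRT12_H (n = 4), 284 ± 32.8 in TRT6_C (n = 5) and 273 ± 21.7 in TRT0_C (n = 5). Only the step from TRT12_C to TRT6_H, 42.1 CPM, was larger than the SD of one of its 2 groups, and it was smaller than that of the other. The remaining neighbours in this order differed by less than either SD.

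For S100A10, the TRT12_C calves were at 117, 120, 130, 133 and 154 CPM. The TRT0_C calves were at 70.3, 97.5, 98.4, 114 and 116 CPM. The groups did not overlap, but the gap between them was narrow: the highest TRT0_C calf was at 116.4 CPM and the lowest TRT12_C calf at 116.8 CPM. The TRT6_C calves were at 77.2, 87.2, 97.3, 118 and 119 CPM, and the upper 2 lay inside the TRT12_C range. The heifer groups held values of 82.1, 106, 106 and 122 CPM in TRT0_H, of 97.9, 102, 107 and 151 CPM in TRT6_H and of 97.6, 104, 124 and 127 CPM in TRT12_H. One TRT6_H calf, at 151 CPM, was the second highest of all 27 and stood apart from its group.

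The S100A10 means fell in the order 131 ± 14.6 CPM in TRT12_C, 115 ± 24.6 in TRT6_H, 113 ± 14.44 in TRT12_H, 104 ± 16.3 in TRT0_H, 99.7 ± 18.42 in TRT6_C and 99.3 ± 18.408 in TRT0_C (SD, n = 5 for C and 4 for H groups). As with ANXA2, the first step, 16.2 CPM, exceeded the SD of only one of its 2 groups, and no later step exceeded either SD.

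AHNAK showed another order. Its means were 3436 ± 240 CPM in TRT0_C, 3283 ± 304 in TRT6_H, 3278 ± 339 in TRT6_C, 3208 ± 450 in TRT12_C, 3159 ± 177 in TRT0_H and 3109 ± 455 in TRT12_H (SD, n = 5 for C and 4 for H groups). All 5 steps were smaller than either SD. The TRT12_C calves were at 2796, 2956, 3011, 3350 and 3927 CPM and the TRT0_C calves at 3040, 3439, 3446, 3596 and 3656 CPM. The TRT12_C group thus held both the highest AHNAK value of the study and 3 values below every TRT0_C calf. The other groups ran from 2930 to 3352 CPM in TRT0_H, from 2977 to 3576 in TRT6_H, from 2872 to 3676 in TRT6_C and from 2656 to 3670 in TRT12_H.

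**Figure D1:**
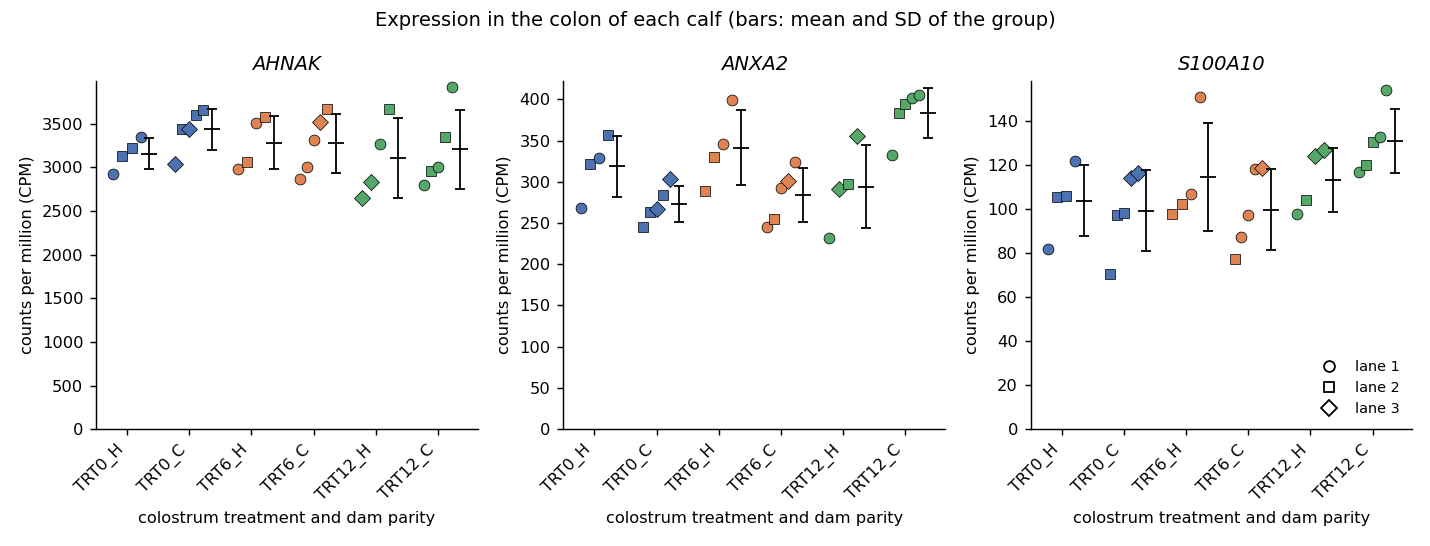
CPM (linear axis from 0) of AHNAK, ANXA2 and S100A10 in each of 27 calves by treatment and dam parity. Point shape gives the lane as named in the text, and bars give the group mean and SD. The ANXA2 points of TRT12_C, 332 to 406 CPM, lie above those of TRT0_C and TRT6_C, whereas the AHNAK points of all groups overlap.

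The differences were tested with edgeR's quasi-likelihood F-test over 13943 genes, with 9 contrasts within parity or treatment and 4 overall. A gene was called at a Benjamini-Hochberg adjusted p of at most 0.1 and a fold change of at least 1.2. None of the 3 genes was called in any of the 13 contrasts, and no other gene was either (0% called in each). The paper, at the same thresholds in edgeR, called RGS2 and CCL14 in some of the contrasts within parity or treatment. The reason for this difference was not tested. At an unadjusted p under 0.05, ANXA2 and S100A10 passed in TRT12_C vs. TRT0_C, where 1376 genes did (9.87%), in TRT12_C vs. TRT6_C, where 936 did (6.71%), and in TRT12 vs. TRT0 over all calves, where 1307 did (9.37%). ANXA2 alone passed in TRT0_C vs. TRT0_H (2.52% of genes), TRT6_C vs. TRT6_H (3.86%) and TRT12_C vs. TRT12_H (2.68%). None of the 3 passed in TRT6_H vs. TRT0_H (3.34%), TRT12_H vs. TRT0_H (3.56%), TRT12_H vs. TRT6_H (1.8%), TRT6_C vs. TRT0_C (1.95%), TRT6 vs. TRT0 (3.14%), TRT12 vs. TRT6 (3.14%) or C vs. H (2.52%).

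The contrast with the lowest p for ANXA2 was TRT12_C vs. TRT0_C. Its log2 fold change there was 0.56 (SE 0.14), a 1.47-fold difference with a 95% interval of 1.22 to 1.78, and the quasi-likelihood p of 0.00029 ranked 10th of the 13943 genes but came to an adjusted p of 0.383 (edgeR, Benjamini-Hochberg). By DESeq2 the same contrast gave a log2 fold change of 0.55 and an adjusted p of 0.0947, which passed the threshold with 3 other genes. Over all settings other than leaving out a calf, the log2 fold change lay between 0.49 and 0.63 and the adjusted p between 0.0947 and 0.527. When single calves were left out in edgeR, the log2 fold change was 0.50 to 0.62 and the adjusted p 0.152 to 0.788.

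In the same contrast the log2 fold change of S100A10 was 0.46 (SE 0.19), 1.38-fold with a 95% interval of 1.05 to 1.80, with an unadjusted p of 0.0209 and an adjusted p of 0.460 (edgeR quasi-likelihood). Its unadjusted p was 0.0803 without TRT0 replicate 8 and 0.068 without TRT12 replicate 8. That of AHNAK was -0.03 (SE 0.14), 0.978-fold with an interval of 0.806 to 1.19, and its p was 0.813. The median over all genes tested was -0.01 on the same log2 scale.

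Against TRT6_C, the TRT12_C calves had a log2 fold change of 0.46 for ANXA2 (SE 0.14, 1.37-fold, adjusted p = 0.738 by edgeR), of 0.43 for S100A10 (SE 0.19, 1.34-fold, adjusted p = 0.738) and of -0.01 for AHNAK (SE 0.14, adjusted p = 0.995). By its unadjusted p of 0.00211, ANXA2 ranked 34th of all genes tested here. The unadjusted p of S100A10, 0.0318, lay between 0.0609 and 0.11 without TRT6 replicate 4, 6 or 8 or TRT12 replicate 5 or 8. This contrast shares the TRT12_C calves with the one above. In TRT6_C vs. TRT0_C the log2 fold changes were 0.10 for ANXA2, 0.03 for S100A10 and -0.02 for AHNAK, each with an SE of at least 0.136.

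An exact two-sided permutation test on the CPM values of the 5 and 5 calves gave p = 0.00794, the smallest p this design allows, for ANXA2 in TRT12_C vs. TRT0_C (difference 111 CPM) and in TRT12_C vs. TRT6_C (difference 99.7 CPM). Groups without overlap, with TRT12_C higher, were found for 0.689% of the genes tested against TRT0_C and for 0.366% against TRT6_C. Counted in either direction, as the two-sided test does, the shares were 2.19% and 0.746%. For S100A10 the exact permutation p was 0.00794 against TRT0_C (difference 31.4 CPM) and 0.0238 against TRT6_C (difference 31.1 CPM). The ANXA2 values were also scaled by TMM library sizes or with the 10 highest genes left out. The exact permutation p of ANXA2 then stayed at 0.00794 against TRT0_C and was 0.00794 to 0.0159 against TRT6_C. With TMM library sizes TRT12_C and TRT6_C overlapped for ANXA2: TRT6 replicate 5 was at 8.52 log2 CPM and TRT12 replicate 7 at 8.49. The S100A10 result depended on how the totals were scaled: with TMM-scaled library sizes, chosen after the CPM values were seen, the exact permutation p was 0.0556 against TRT0_C and 0.0794 against TRT6_C. It also depended on single calves in TRT12_C vs. TRT6_C, where leaving out TRT12 replicate 5, 6 or 8 gave an exact permutation p of 0.0556. For AHNAK the exact permutation p was 0.325 against TRT0_C (difference -227 CPM). Leaving out each of the 10 calves in turn gave 0.0397 to 0.587. The lowest came without TRT12 replicate 7, the calf with the highest AHNAK value, when the difference was -407 CPM. Without that calf edgeR's quasi-likelihood fit gave a log2 fold change of -0.06 and an unadjusted p of 0.69. With all calves, the 2 other scalings gave AHNAK differences of -372 to -73.7 CPM (exact permutation p = 0.198 to 0.706).

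The lanes allowed a limited comparison within lane 2. There the 3 TRT0_C calves had 246 to 284 CPM of ANXA2 and 70.3 to 98.4 CPM of S100A10, and the 2 TRT12_C calves had 384 to 394 CPM and 120 to 130 CPM. With lane as a covariate in edgeR, ANXA2 had a log2 fold change of 0.63 in TRT12_C vs. TRT0_C (adjusted p = 0.158) and S100A10 one of 0.55 (adjusted p = 0.206), whereas in TRT12 vs. TRT0 over all calves it gave 0.23 in place of 0.26 for ANXA2 and 0.24 in place of 0.29 for S100A10. Over all 27 calves, lane accounted for 1.62% of the variance of AHNAK, 7.79% of that of ANXA2 and 21.6% of that of S100A10 on the log2 scale (permutation p = 0.823, 0.376 and 0.0544).

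**Figure D2:**
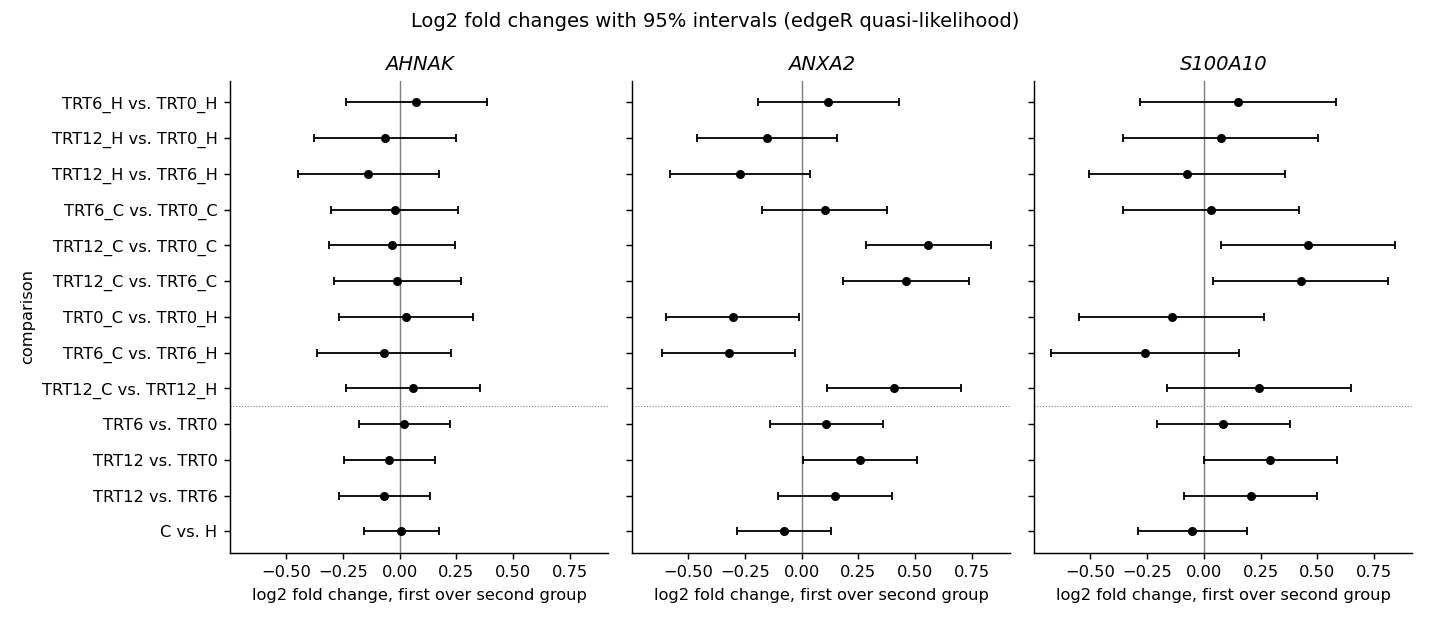
Log2 fold changes (points) with 95% intervals (bars) of the 3 genes in 9 contrasts within parity or treatment, above the dotted line, and 4 overall contrasts below it, from edgeR's quasi-likelihood fits to 27 calves. ANXA2 reaches 0.56 in TRT12_C vs. TRT0_C and lies below 0 in TRT0_C vs. TRT0_H, and every AHNAK interval includes 0.

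The calves of cows and of heifers differed in ANXA2 in opposite directions across the treatments. ANXA2 was lower in C than in H calves fed at birth (log2 fold change -0.31, SE 0.14) and at 6 h (-0.32, SE 0.14), and higher in C than in H calves fed at 12 h (0.41, SE 0.14). By edgeR the unadjusted p was 0.0414, 0.0324 and 0.00847 and the adjusted p at least 0.998. An exact permutation test on CPM gave p = 0.0556, 0.0635 and 0.0238 for these contrasts, and the groups overlapped in each. Within the heifers' calves, TRT12_H vs. TRT0_H had a log2 fold change of -0.15 (SE 0.15) and an unadjusted p of 0.316. The difference itself was tested as the interaction of treatment and parity, which gave an unadjusted p of 0.00137 for ANXA2, the 9th lowest of all genes, and an adjusted p of 0.999 (edgeR quasi-likelihood). The share of genes with an unadjusted interaction p under 0.05 was 2.66%, and 1 gene was called (0.00717%), which was RGS2 and not one of the 3, named here after its value was seen. The unadjusted interaction p was 0.196 for S100A10 and 0.808 for AHNAK. With lane as a covariate it was 0.0111 for S100A10 (edgeR adjusted p = 0.895) and 1.7e-04 for ANXA2 (adjusted p = 0.578).

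S100A10 took the same signs as ANXA2 with smaller parity differences: the log2 fold change of C over H calves was -0.14 (SE 0.20) at birth, -0.26 (SE 0.20) at 6 h and 0.24 (SE 0.20) at 12 h, and the lowest unadjusted p was 0.211. The AHNAK values were 0.03, -0.07 and 0.06, each with an SE of 0.144. The AHNAK contrast with the lowest p was TRT12_H vs. TRT6_H, at a log2 fold change of -0.14 (SE 0.15) and an unadjusted p of 0.371 by edgeR.

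Over both parities, TRT12 vs. TRT0 had a log2 fold change of 0.26 for ANXA2 (SE 0.12, adjusted p = 0.524), 0.29 for S100A10 (SE 0.14, adjusted p = 0.530) and -0.05 for AHNAK (SE 0.10, adjusted p = 0.930), by edgeR. The unadjusted p of 0.0456 for ANXA2 and 0.0486 for S100A10 did not stay under 0.05: it was 0.08 and 0.0816 with lane as a covariate, and reached 0.102 and 0.116 with TRT12 replicate 8 left out. The 9 calves per treatment overlapped for each gene: S100A10 ran from 70.3 to 122 CPM in TRT0 and from 97.6 to 154 CPM in TRT12. C vs. H over all treatments gave -0.08, -0.05 and 0.01 for ANXA2, S100A10 and AHNAK, with 95% intervals that included 0.

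Over all 27 calves, and among the C calves, those with more ANXA2 also had more S100A10. On log2 CPM with TMM library sizes, Pearson's r of the pair was 0.78 over 27 calves (permutation p = 1.0e-05, the smallest that 100000 permutations can give, adjusted p = 6.0e-05 over 3 pairs and 2 measures) and the rank correlation, Spearman's rho, came to 0.72 (permutation p = 6.0e-05). The 2 calves farthest from the median ANXA2 level were then left out, and r was 0.70. Within lane 1 it was 0.71 (permutation p = 0.0172) and within lane 2 it was 0.92 (permutation p = 7.0e-05), with 11 calves each, while lane 3 held too few calves. After the mean of each of the 6 groups was removed, r was 0.76. It was 0.90 in the 15 C calves and 0.44 in the 12 H calves (permutation p = 0.153), and the difference between these was not tested. Without the 2 calves farthest from the median ANXA2 level, r was 0.85 in the C calves and 0.099 in the H calves (permutation p = 0.782). Leaving out each calf in turn gave 0.74 to 0.82.

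AHNAK was not related to either partner in this way. Its r was 0.06 with ANXA2 (permutation p = 0.773, rho 0.01) and 0.19 with S100A10 (permutation p = 0.351, rho 0.24). The sign depended on the scaling: on log2 CPM over library totals r was -0.28 and -0.36. Without the 2 calves farthest from the median AHNAK level, r was -0.13 with ANXA2 and 0.16 with S100A10.

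**Figure D3:**
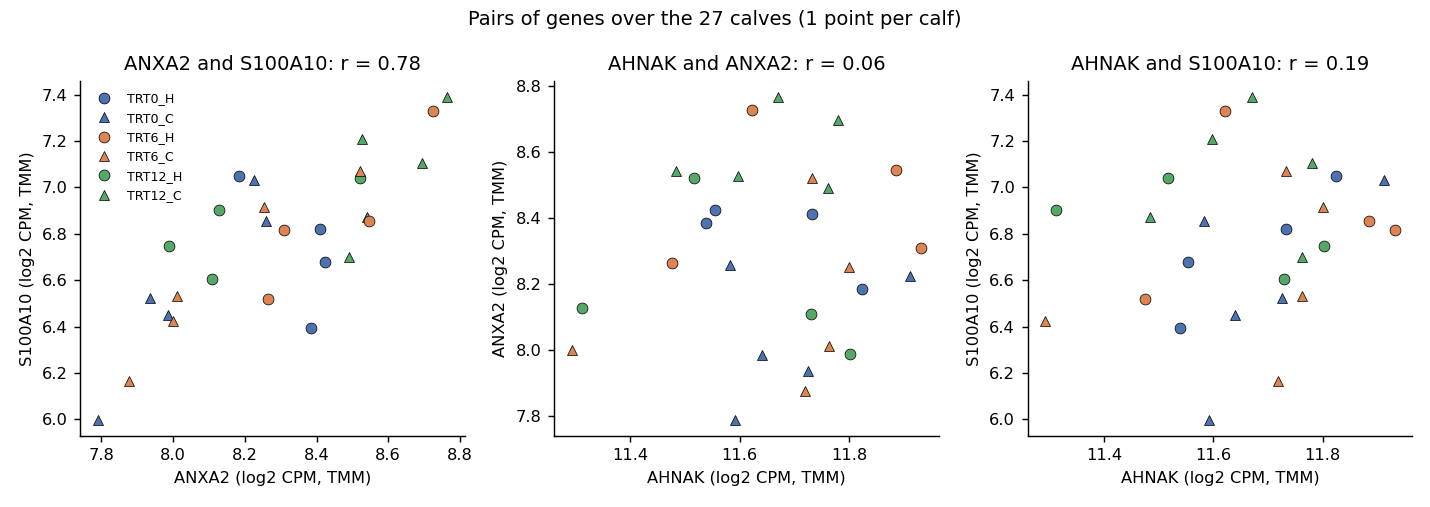
Log2 CPM with TMM library sizes for each pair of genes, 1 point per calf, coloured by treatment and shaped by dam parity. ANXA2 and S100A10 lie along a rising line (r = 0.78), and the plots with AHNAK (r = 0.06 and 0.19) show none.

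The counts of the 3 genes were also compared as ratios within each calf. S100A10 had 35.2% ± 5.07 as many counts as ANXA2 (SD, n = 27, range 25% to 45.4%), a ratio of read counts that reflects transcript length as well as abundance. Relative to AHNAK, ANXA2 was at 9.83% ± 2.08 and S100A10 at 3.44% ± 0.831. The largest difference among 12 tests of these ratios was in S100A10 over AHNAK, 3.97% ± 0.859 in TRT12 and 3.07% ± 0.549 in TRT0 (n = 9 each), a difference of 0.36 in mean log2 ratio with an exact permutation p of 0.0235 and an adjusted p of 0.282. ANXA2 over AHNAK differed by 0.29 between the same groups (exact permutation p = 0.0512, adjusted p = 0.307). S100A10 over ANXA2 differed by 0.07 (exact permutation p = 0.553). These ratios do not depend on the library total.

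The genes whose levels over the 27 calves were most like those of each member were picked by Pearson's r of log2 CPM among the genes tested, and are given as a description. For ANXA2 they were ARF4 (r = 0.91), TMED7 (0.85), CANX (0.85), RPN2 (0.85) and PSMB5 (0.84). ARF4 is a small GTPase of Golgi traffic, TMED7 a cargo receptor of the early secretory pathway, CANX (calnexin) a chaperone of the endoplasmic reticulum, RPN2 a subunit of the oligosaccharyltransferase and PSMB5 a catalytic subunit of the proteasome. S100A10 was 31st of 13942 genes in likeness to ANXA2. For S100A10 they were TM9SF3 (0.91), RAB1A (0.91), TMED7 (0.90), KDELR2 (0.90) and YES1 (0.89), of which RAB1A and KDELR2 act between the endoplasmic reticulum and the Golgi and YES1 is a Src-family kinase. ANXA2 was 78th in likeness to S100A10. TMED7 was in both lists.

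For AHNAK the most alike genes were SEMA3C (0.72), COL15A1 (0.71), FHL1 (0.71), PCDH18 (0.70) and SDPR (0.69). SEMA3C is a secreted semaphorin, COL15A1 a collagen of the basement membrane zone, FHL1 a LIM-domain protein of muscle, PCDH18 a protocadherin and SDPR (cavin-2) a caveolar coat protein. This list was less stable than the others: on log2 CPM over library totals 1 of the 5 genes stayed among the 5 most alike to AHNAK, against 3 for ANXA2 and 4 for S100A10.

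Related genes were described from lists, of which only the symbols paired with an identifier could be followed, mostly well expressed genes. None of their genes was called in TRT12_C vs. TRT0_C or TRT12 vs. TRT0. The counts at an unadjusted p under 0.05 given here for TRT12_C vs. TRT0_C stand beside 9.87% of all genes tested, and with so few genes a list they set no list apart. Of 11 other annexins, 6 were tested, and their median log2 fold change in TRT12_C vs. TRT0_C was 0.18 (range 0.03 to 0.35) against -0.01 over all genes, with 1 at an unadjusted p under 0.05. ANXA11, the highest of them at 177 ± 20.7 CPM (SD, n = 27), was at 179 CPM in TRT0_C and 173 CPM in TRT12_C, and ANXA7 had the lowest p in TRT12 vs. TRT0 (log2 fold change 0.12, SE 0.10). Of 17 other S100 proteins, 3 were tested. S100A12, a calcium-binding protein of granulocytes, was at 26.5 ± 9.90 CPM in TRT0_C and 72.4 ± 13.1 CPM in TRT12_C (log2 fold change 1.49, adjusted p = 0.427 by edgeR). S100G, the intestinal calcium-binding protein calbindin-D9k, was at 230 ± 95.8 and 148 ± 51.8 CPM (log2 fold change -0.55).

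Of 14 relatives and cytoskeletal partners of AHNAK, 7 were tested, with a median log2 fold change of 0.04 in TRT12_C vs. TRT0_C and 3 at an unadjusted p under 0.05, all higher in TRT12_C. ACTB, the cytoplasmic beta-actin, was at 2667 ± 254 CPM in TRT0_C and 3537 ± 564 CPM in TRT12_C (log2 fold change 0.48, adjusted p = 0.427 by edgeR). Of 9 cortical linkers and caveolar genes, 7 were tested, with a median of 0.22 and 1 at an unadjusted p under 0.05. PTRF (cavin-1), a caveolar coat protein, was at 262 ± 47.1 and 302 ± 64.4 CPM, and SLC9A3R1, an apical adaptor that binds ezrin, at means of 90.6 and 116 CPM (log2 fold change 0.44). Of 10 genes of the plasminogen system, 4 were tested, with a median of 0.56 and 2 at an unadjusted p under 0.05. These were ENO1, a glycolytic enzyme that also binds plasminogen, at 307 ± 29.2 and 420 ± 59.9 CPM, and PLAT, the tissue plasminogen activator, at 66.4 ± 32.9 and 92.6 ± 23.2 CPM (SD, n = 5 each; log2 fold changes 0.52 and 0.60, adjusted p 0.427 and 0.478 by edgeR). Among 8 proteins that S100A10 is known to carry or bind, CFTR, the chloride channel, was the only one tested, at 133 ± 8.97 and 111 ± 21.3 CPM.

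Markers of cell types moved with some of these values. The sum of 7 epithelial markers was 2304 to 3004 CPM in TRT0_C, 2306 to 3271 CPM in TRT6_C and 2668 to 3358 CPM in TRT12_C, and all 7 had a positive log2 fold change in TRT12_C vs. TRT0_C (median 0.36, none called). Of 6 goblet cell markers only 3 were followed. Their sum was mostly AGR2 and SPINK4, at means of 525 and 490 CPM over the 27 calves, with TFF3 at 68.1 CPM. The sum was 800 to 1381, 564 to 1143 and 1030 to 1709 CPM in the same groups, and all 3 were positive in TRT12_C vs. TRT0_C (median 0.37, none called). The 6 smooth muscle markers had a median log2 fold change of 0.19 in that contrast, with MYH11, the highest of them, at -0.10. The median was 0.07 for the 6 fibroblast markers, led by COL3A1, and 0.14 for the 3 endothelial markers, led by VWF. It was 0.12 for the 2 of enteric glia and neurons, led by UCHL1. No marker of these lists was called. Of 6 leukocyte markers only PTPRC was followed, at -0.36. No marker followed was at 0 in every calf.

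Over the 27 calves, 21 relations between the 3 genes and these 7 sums were computed after the values of the genes were known. ANXA2 went with the goblet cell sum (r = 0.75, rho = 0.75, permutation p = 2.0e-05 and 3.0e-05, adjusted p = 3.1e-04 and 6.3e-04) and the epithelial sum (r = 0.65, rho = 0.63, permutation p = 3.1e-04 and 5.4e-04, adjusted p = 0.00217 and 0.00378). S100A10 went with the goblet cell sum (r = 0.73, rho = 0.71, adjusted permutation p = 3.1e-04 and 8.4e-04) and with the epithelial sum (r = 0.56, rho = 0.60, adjusted permutation p = 0.0115 and 0.00535). Within lanes 1 and 2, r with the goblet cell sum was 0.83 and 0.85 for ANXA2 and 0.82 and 0.75 for S100A10. On library totals, r of S100A10 with the epithelial sum was 0.28. Without the 2 calves farthest from the median of the sum, these 4 relations had r of 0.71, 0.63, 0.70 and 0.53.

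AHNAK went with the smooth muscle sum instead (r = 0.53, adjusted permutation p = 0.0161, rho = 0.44, adjusted permutation p = 0.102), at 0.55 in lane 1, 0.53 in lane 2 and 0.43 without the 2 farthest calves. With single smooth muscle markers, r of AHNAK ran from 0.37 for TAGLN to 0.66 for MYH11, the largest part of the sum. The r of AHNAK was -0.55 with PTPRC but -0.17 without the 2 calves farthest from the median PTPRC level. The part of these cell types in the differences of ANXA2 and S100A10 was not tested.

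**Figure D4:**
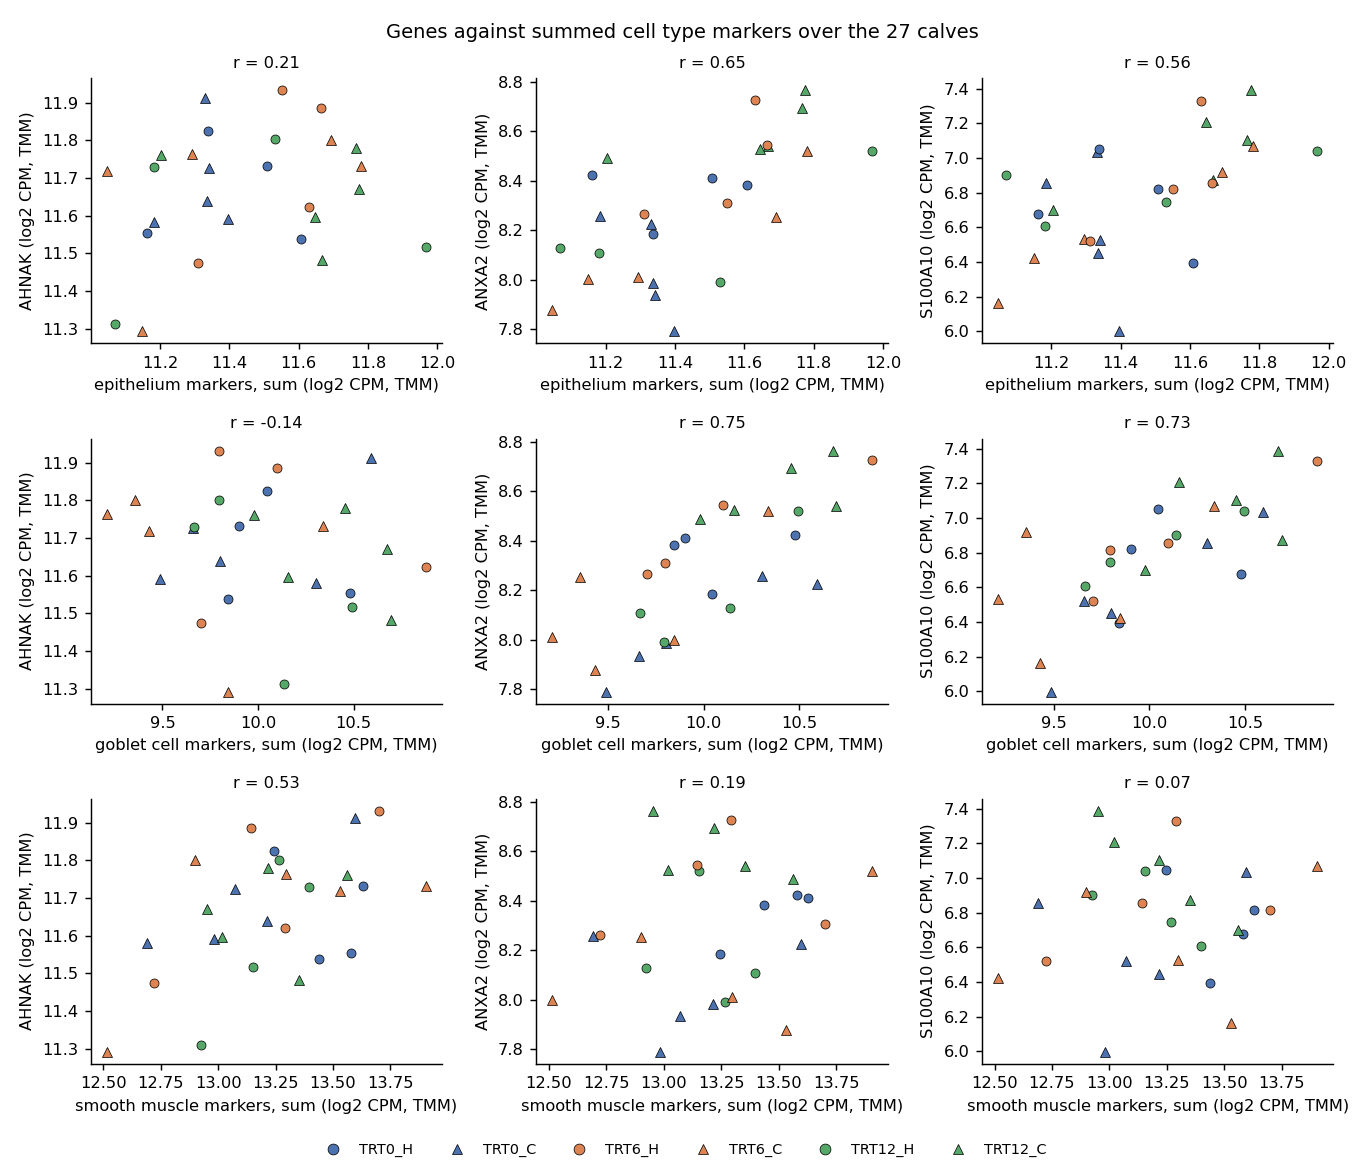
Log2 CPM with TMM library sizes of AHNAK, ANXA2 and S100A10 (columns) against the summed markers of epithelium, goblet cells and smooth muscle (rows), 1 point per calf, coloured by treatment and shaped by dam parity. ANXA2 and S100A10 are higher in calves with a higher goblet cell sum (r = 0.75 and 0.73), and AHNAK in calves with a higher smooth muscle sum (r = 0.53).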

How the data were processed

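The authors discarded reads that failed the sequencer's chastity filter, aligned the rest to the bovine genome UMD 3.1 with TopHat2 2.1.1, sorted them with SAMtools 1.4 and, with HTSeq, counted the reads that fell on each Ensembl gene. The deposited values were raw counts per gene and calf, with 1 column for each of 27 calves and 0 columns left unused. Reads assigned to several genes were left out by the authors, the strand setting is not given in the sources used here, and a share of reads lost to near-identical gene copies was not tested. Treatment and the codes here called lanes came from the labels, and dam parity, which the labels do not give, from the study's sample sheet.

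CPM was the count over the library total. For tests, genes at 1 CPM or more in at least 5 of the 9 calves of each treatment were kept (13943 genes), library sizes were scaled by TMM (factors 0.886 to 1.15) and edgeR 4.0.16 quasi-likelihood F-tests were fitted in R 4.3.3 to 6 group means (9 contrasts and the interaction) or to treatment plus parity (4 contrasts), with Benjamini-Hochberg adjustment over all genes tested. Log2 CPM for correlations used a prior count of 2. Permutation tests were two-sided and used SciPy 1.17.1 and NumPy 2.4.6, exact up to 9 against 9 calves and with 100000 permutations otherwise (10000 for correlations with a calf left out). Calves are separate animals. Intervals in fold change are 95% intervals of the fit. The edgeR quasi-likelihood fit was tried on simulated counts, with changed genes in TRT12_C vs. TRT0_C or TRT12 vs. TRT0 and once without any.

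The members and lists were chosen with earlier results of these data known. The genes named were the 3 members, for each the contrast within parity or treatment with the lowest p and the 5 most alike genes, in each list the called genes, the gene with the highest mean CPM and that with the lowest p in TRT12 vs. TRT0, and in each marker list the gene with the highest mean CPM. Gene symbols came from the study's supplementary gene lists, which were held in part and lean to highly expressed genes. Alternatives were the edgeR likelihood ratio test, DESeq2 1.42.0, library totals, RLE size factors, no filter, core genes only, lane as a covariate, only the groups compared, the 10 highest genes left out and each calf left out in turn. Sequences and transcript lengths of the 3 genes were not used here.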

Additional observations from a re-analysis of the deposited data

Results flagged for a closer look

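In 36 groups of 4 or 5 calves (the 3 genes and their 3 ratios in 6 groups each), 3 values stood far from the others of their group by Dixon's test at the 95% level. Chance alone flags about 1 in 20 groups. The flags are not independent, because the ratios use the same counts and TRT6 replicate 2 was flagged for a gene and for its ratio. S100A10 was at 151 CPM in TRT6 replicate 2, a TRT6_H calf, where the other 3 calves of its group were at 97.9 to 107 CPM. The ratio of S100A10 to AHNAK counts in that calf was 5.07%, against a group mean of 3.54%. The ratio of ANXA2 to AHNAK counts was 9.96% in TRT0 replicate 1, a TRT0_C calf, against a group mean of 7.99%, and this calf had the lowest AHNAK (3040 CPM) and the highest ANXA2 (303 CPM) of its group. No cause of these values was tested.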

How the results depend on the processing

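Genes called changed with the test. The likelihood ratio test called 1 gene in TRT6_H vs. TRT0_H, TRT6_C vs. TRT0_C, TRT0_C vs. TRT0_H and TRT6_C vs. TRT6_H, and 2 in TRT12_C vs. TRT0_C, C vs. H and the interaction. DESeq2 called 51 in TRT12 vs. TRT0, 4 in TRT12_C vs. TRT0_C (ANXA2 among them, log2 fold change 0.55), 2 in TRT6_C vs. TRT6_H and 1 in TRT12_H vs. TRT0_H, TRT6_C vs. TRT0_C, TRT0_C vs. TRT0_H and C vs. H. Without a filter, 1 was called in TRT12_C vs. TRT0_C, TRT12_C vs. TRT6_C, TRT12_C vs. TRT12_H and TRT12 vs. TRT6, and 3 in C vs. H. With lane as a covariate, 4 were called in TRT12_C vs. TRT0_C, 1 in TRT6 vs. TRT0 and TRT12 vs. TRT0 and 0 in the interaction, as with core genes only. With only the groups compared, 2 were called in TRT12_C vs. TRT0_C and 1 in TRT0_C vs. TRT0_H. The causes were not tested.

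On library totals AHNAK in TRT6 vs. TRT0 turned to -0.013, and its r turned to -0.28 with ANXA2 and -0.36 with S100A10 (-0.23 and -0.052 with the 10 highest genes left out, when mean levels were 5230 CPM for AHNAK, 507 for ANXA2 and 178 for S100A10). With TMM-scaled totals, chosen after seeing the data, the S100A10 difference was 36.9 CPM in TRT12_C vs. TRT0_C and 33.8 CPM in TRT12_C vs. TRT6_C, and it was 50.1 and 47.6 CPM with the 10 highest genes left out (exact permutation p = 0.0556, 0.0794, 0.0714 and 0.0714).

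With single calves left out, 0 to 1 genes were called in TRT6_C vs. TRT6_H, TRT12 vs. TRT0, C vs. H and the interaction. Ranges that crossed 0 included AHNAK in TRT6 vs. TRT0 (-0.013 to 0.066), C vs. H (-0.022 to 0.034), TRT12_C vs. TRT0_C (-0.063 to 0.027) and TRT12_C vs. TRT6_C (-0.091 to 0.032), S100A10 in C vs. H (-0.089 to 0.0097), r of AHNAK and ANXA2 (-0.044 to 0.10), the log2 ratio of S100A10 to AHNAK in TRT6 vs. TRT0 (-0.0043 to 0.15), that of S100A10 to ANXA2 in TRT6 vs. TRT0 (-0.066 to 0.041) and C vs. H (-0.033 to 0.045), and AHNAK CPM in TRT12_C vs. TRT6_C (-250 to 32.9). AHNAK CPM in TRT12_C vs. TRT0_C ran from -407 to -124, and S100A10 CPM in TRT12_C vs. TRT6_C from 25.3 to 35.8. DESeq2 was not run for the interaction. No paired analysis was possible because the labels give no replicate numbers that tie calves of different treatments together.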
